A study of Mus musculus with 12 samples.

Results

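The genes of the PDGF and FGF receptors and of the PDGF ligands were followed across 12 RNA-seq libraries of S1 cells. The genes were *Pdgfra*, *Pdgfrb*, *Pdgfa*, *Pdgfb*, *Pdgfc*, *Fgfr1*, *Fgfr2*, *Fgfr3* and *Fgfr4*, found by their symbols in the count tables. Of these 9 genes, 8 were measured among the 18926 genes of the tables, and *Fgfr4* was not analysed here. *Pdgfra* was chosen by its high level in the libraries with little *Nf2* mRNA, so its differences between those libraries and the others are a description with no test, and counts of called genes are over the other 7 measured genes. S1 is a cell line from a gastric cancer of a mouse with 1 floxed copy of *Cdh1* and floxed *Trp53* and *Smad4*, which all groups share. Cells carried stable Cas9 as pooled clones and received a lentiviral guide RNA, and they were grown as tumorspheres, the round clusters that form in suspension, although the labels call them monolayer cells. The 4 groups of 3 libraries were control (a non-targeting guide), *Rasa1*-KO, *Nf2*-KO and double-KO. RASA1 is a GTPase-activating protein that switches Ras off, and NF2 (merlin) acts in the Hippo pathway upstream of YAP.

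PDGF receptors are receptor tyrosine kinases that dimerize when a PDGF dimer binds. PDGFRA binds PDGF-A, PDGF-B and PDGF-C chains, and PDGFRB binds mainly PDGF-B and PDGF-D. In tissues both receptors are known from fibroblasts, pericytes and other mesenchymal cells, whereas the ligands are often made by neighbouring epithelial cells. FGF receptors share the same plan but need heparan sulfate beside the ligand. FGFR2 and FGFR3 are typical of epithelia in their epithelial splice forms, and FGFR1 is typical of mesenchymal cells. RASA1 itself binds the activated PDGFRB through its SH2 domains.

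A RefSeq promoter window (GRCm38.p6) was found for 6 of the 9 genes. The 250 bases before the start are printed for *Pdgfra*, whose level differed most between the groups, and for *Pdgfc* and *Fgfr2*, a ligand and a receptor that fell where *Pdgfra* was high. The *Pdgfra* window is chr5:75152001-75152250 on the plus strand, with no GENCODE exon of the gene in it, although the span of the gene in the tables begins before it. The *Pdgfc* window is chr3:81036166-81036415 on the plus strand, and the *Fgfr2* window is chr7:130266809-130267058 on the minus strand. The bases are given 5′ to 3′ on the strand of the gene, with matches to a searched motif in capitals.
Pdgfra: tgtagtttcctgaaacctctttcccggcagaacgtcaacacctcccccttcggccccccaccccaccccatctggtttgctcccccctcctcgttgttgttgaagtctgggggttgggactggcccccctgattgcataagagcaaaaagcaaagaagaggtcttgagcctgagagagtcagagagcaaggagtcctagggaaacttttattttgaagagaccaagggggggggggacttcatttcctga
Pdgfc: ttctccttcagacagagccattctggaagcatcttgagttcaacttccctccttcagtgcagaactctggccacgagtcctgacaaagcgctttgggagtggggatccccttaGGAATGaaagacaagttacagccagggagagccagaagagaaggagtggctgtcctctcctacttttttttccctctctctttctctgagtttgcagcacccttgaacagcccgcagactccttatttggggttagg
Fgfr2: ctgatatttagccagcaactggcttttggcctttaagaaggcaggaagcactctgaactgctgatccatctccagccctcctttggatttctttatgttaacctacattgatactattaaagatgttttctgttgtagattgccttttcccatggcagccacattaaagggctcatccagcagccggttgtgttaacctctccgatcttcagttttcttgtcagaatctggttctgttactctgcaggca
The motifs were searched on both strands, as GGAATG (TEAD, the DNA partner of YAP), TGANTCA (AP-1), CTTTGAT (TCF/LEF) and GGGCGG (GC box). They were present in 12.6%, 6.75%, 3.21% and 32.7% of 32851 promoter windows of the same length. The *Pdgfra* and *Fgfr2* windows held none of them. *Pdgfc* held 1 match, GGAATG, beginning 137 bases before the start, and the windows of *Fgfr3* and *Pdgfa* held GC boxes only. A match or its absence describes these letters in this window.

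Depth was between 43818139 and 96674463 counts per library (median 83980699). Levels of a gene are given as CPM, counts scaled to the TMM-normalized library size, and levels of different genes are compared in FPKM, which also divide by transcript length. *Nf2* mRNA was between 55.4 and 61.0 CPM in control and between 13.2 and 14.3 CPM in *Nf2*-KO. It was between 11.6 and 12.1 CPM in the libraries labelled *Rasa1*-KO but between 56.4 and 62.6 CPM in those labelled double-KO, against both labels, and the names of the deposited tables carry these labels exchanged. *Rasa1* mRNA was low in both groups, at 31.9 ± 2.27 CPM (SD, n = 3) where the label was *Rasa1*-KO and 20.5 ± 2.80 CPM where it was double-KO, against 71.3 ± 9.54 CPM in control. In *Nf2*-KO it was at 98.5 ± 2.21 CPM, above all control libraries (1.38-fold, adjusted p = 0.0108, edgeR). With the labels exchanged, each value given for the libraries labelled *Rasa1*-KO belongs to those labelled double-KO, and the reverse. The legend of the study's principal component plot calls its dots technical replications, so SDs and p-values describe the spread between libraries only. The control library without a number in its title stood apart from controls 1 and 2, and replicate 1 of the libraries labelled double-KO from replicates 2 and 3, by the chi-square distance of their counts. The differences of *Pdgfra*, *Pdgfrb* and *Fgfr1* from control in both groups with little *Nf2* mRNA are given with and without the unnumbered control. Other values include it unless stated. It was at 9.67 CPM for *Gpc4*, 0.574 CPM for *Notch3* and 1.13 CPM for *Col1a1*. Controls 1 and 2 were at 55.2 CPM or more, 9.15 CPM or more and 12.1 CPM or more for these genes.

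The PDGF receptor transcripts were low in control and in the libraries labelled double-KO, and high in both groups with little *Nf2* mRNA. *Pdgfra* was at 0.223, 4.81 and 6.29 CPM in the control libraries (unnumbered, 1 and 2). It was at 36.3, 39.5 and 32.1 CPM in libraries labelled *Rasa1*-KO, and at 81.5, 82.7 and 79.6 CPM in *Nf2*-KO. In the libraries labelled double-KO it was at 0.339, 0.910 and 1.03 CPM. All 6 libraries with little *Nf2* mRNA were above all others, *Nf2*-KO above the libraries labelled *Rasa1*-KO, and the unnumbered control lay below those labelled double-KO. The counts behind these levels went from 21 in the unnumbered control to 7250 in *Nf2*-KO 2. As a description, *Pdgfra* was 21.9-fold higher in *Nf2*-KO than in control (log2 4.45 ± 0.78, SE) and 9.71-fold higher in libraries labelled *Rasa1*-KO (log2 3.28 ± 0.74). Without the unnumbered control the log2 differences were 3.88 and 2.71.

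*Pdgfrb*, the partner receptor, followed the same order. It was at 1.92, 19.0 and 14.7 CPM in control, and at 38.3, 41.2 and 38.0 CPM in libraries labelled *Rasa1*-KO. In *Nf2*-KO it was at 96.7, 90.4 and 85.6 CPM, and in the libraries labelled double-KO at 2.19, 4.08 and 4.30 CPM. The *Nf2*-KO libraries and those labelled *Rasa1*-KO did not overlap with control or with each other, and the unnumbered control lay below all libraries labelled double-KO. *Pdgfrb* rose 7.70-fold in *Nf2*-KO (log2 2.94 ± 0.59, adjusted p = 0.00188, edgeR) and 3.31-fold in libraries labelled *Rasa1*-KO (log2 1.73 ± 0.56, adjusted p = 0.0283). The second call was lost when only the 2 groups entered the fit (adjusted p = 0.102) and when any of the libraries labelled *Rasa1*-KO was left out (adjusted p between 0.0597 and 0.0629). Without the unnumbered control the log2 values were 2.43 and 1.22, and both calls stood (adjusted p = 1.7e-06 and 0.00033).

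Per length, *Pdgfra* made up a larger part of the PDGF receptor transcripts where both were high. The summed FPKM of *Pdgfra* and *Pdgfrb* was between 0.351 and 4.10 in control, between 10.5 and 12.5 in libraries labelled *Rasa1*-KO, between 25.4 and 28.1 in *Nf2*-KO and between 0.390 and 0.876 in those labelled double-KO. *Pdgfra* was between 8.03% and 25.8% of that sum in control and between 10.7% and 16.0% in the libraries labelled double-KO. It was between 41.5% and 45.4% in libraries labelled *Rasa1*-KO and between 41.3% and 43.6% in *Nf2*-KO, ranges that overlapped each other but not those of the other groups. Because *Pdgfra* was chosen by its high level in these libraries, its larger part there is a description and was not tested. In bulk RNA, fewer cells that express a gene and less of its RNA per cell cannot be told apart.

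**Figure D1:**
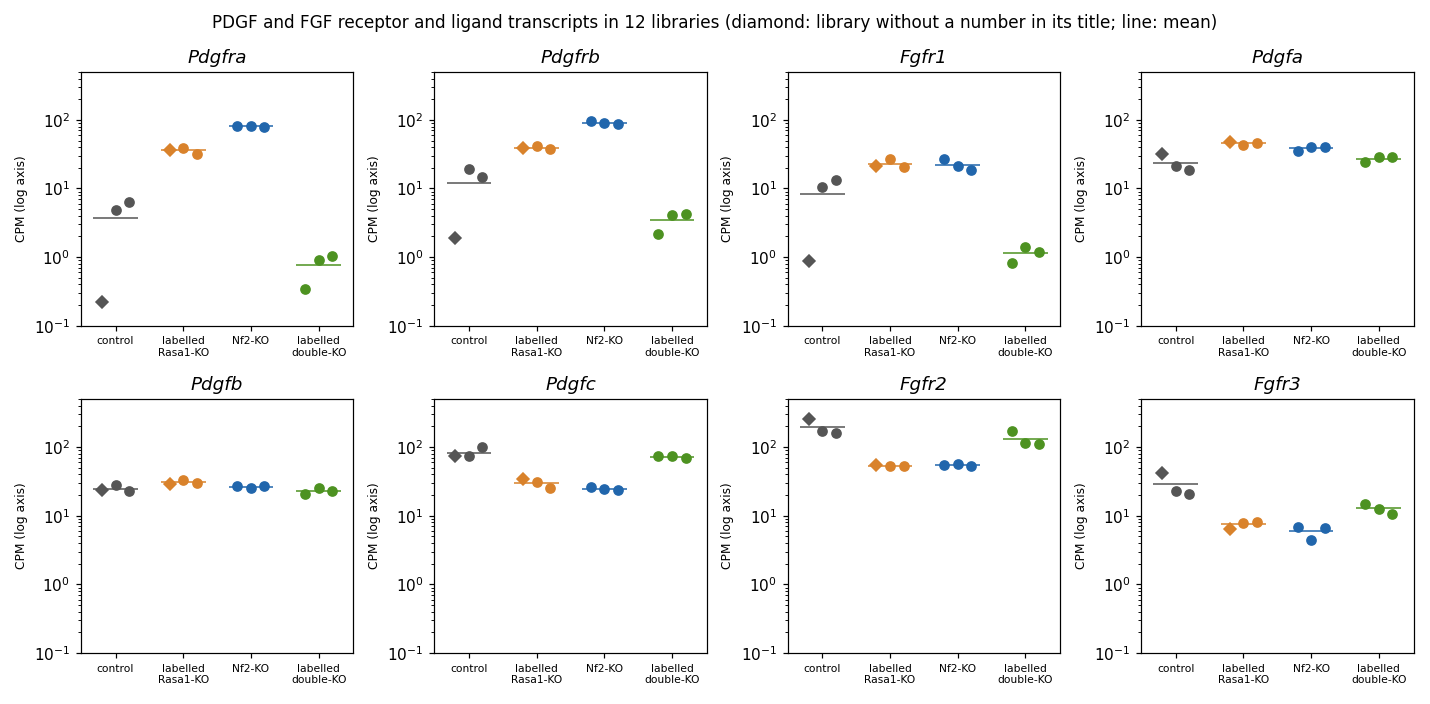
CPM on a log axis for the 8 measured genes in each of the 12 libraries, by group, with the group mean as a line and libraries without a number in their title as diamonds. *Pdgfra* is between 79.6 and 82.7 CPM in *Nf2*-KO and at most 1.03 CPM in the libraries labelled double-KO, and the unnumbered control is the lowest of its group for *Pdgfra*, *Pdgfrb* and *Fgfr1*.

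The 3 PDGF ligand genes did not move together. *Pdgfa*, whose product binds PDGFRA, was at 31.4, 21.1 and 18.9 CPM in control and at 47.3, 43.0 and 45.8 CPM in the libraries labelled *Rasa1*-KO. It was at 34.9, 40.2 and 39.9 CPM in *Nf2*-KO and at 24.1, 28.3 and 28.6 CPM in those labelled double-KO. Both groups with little *Nf2* mRNA lay above the other 2 groups, which overlapped each other. *Pdgfa* rose 1.61-fold in *Nf2*-KO (log2 0.69 ± 0.17, adjusted p = 0.00627) and by 0.93 ± 0.17 on the log2 scale in libraries labelled *Rasa1*-KO (adjusted p = 0.0011).

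*Pdgfc*, which also encodes a PDGFRA ligand, went the other way. It was at 74.9, 74.5 and 99.2 CPM in control and at 73.6, 74.6 and 70.4 CPM in the libraries labelled double-KO. It was at 34.7, 30.7 and 25.7 CPM in libraries labelled *Rasa1*-KO and at 25.9, 24.6 and 23.4 CPM in *Nf2*-KO. These 6 libraries were all lower than the other 6. *Pdgfc* fell 3.36-fold in *Nf2*-KO (log2 -1.75 ± 0.14, adjusted p = 2.1e-06) and 2.73-fold in libraries labelled *Rasa1*-KO (log2 -1.45 ± 0.14, adjusted p = 1.3e-05). In the libraries labelled double-KO the difference from control was -0.19 ± 0.13 on the log2 scale (adjusted p = 0.469).

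*Pdgfb*, whose product binds both PDGF receptors, was between 20.7 and 33.5 CPM in all 12 libraries. Its log2 difference from control was 0.08 ± 0.12 in *Nf2*-KO (adjusted p = 0.586), 0.31 ± 0.12 in libraries labelled *Rasa1*-KO (adjusted p = 0.0574) and -0.11 ± 0.12 in those labelled double-KO (adjusted p = 0.665). The libraries labelled *Rasa1*-KO lay just above all others, and the other groups overlapped. Of the summed FPKM of the 3 ligands, *Pdgfc* was between 48.2% and 63.8% in control and between 48.4% and 52.9% in the libraries labelled double-KO. *Pdgfa* took its place as the most abundant ligand transcript in the other groups, with between 53.2% and 58.1% in libraries labelled *Rasa1*-KO and between 52.3% and 58.3% in *Nf2*-KO. The summed FPKM itself was between 37.9 and 45.2 in control and between 30.4 and 32.9 in *Nf2*-KO.

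Among FGF receptors, *Fgfr1* was high where *Fgfr2* and *Fgfr3* were low. *Fgfr1* was at 0.892, 10.5 and 13.5 CPM in control and at 21.5, 26.7 and 20.7 CPM in the libraries labelled *Rasa1*-KO. It was at 26.7, 21.0 and 18.9 CPM in *Nf2*-KO and at 0.831, 1.39 and 1.20 CPM in libraries labelled double-KO. The groups with little *Nf2* mRNA lay above the others, and the unnumbered control fell among the libraries labelled double-KO, far under controls 1 and 2. The 2.69-fold higher level in *Nf2*-KO (log2 1.43 ± 0.63, adjusted p = 0.0856) and the 2.78-fold higher level in libraries labelled *Rasa1*-KO (log2 1.48 ± 0.63, adjusted p = 0.0785) did not pass the test. Without the unnumbered control both differences were smaller and passed it (log2 0.89, adjusted p = 0.00215, and log2 0.94, adjusted p = 0.00156). The lower level in the libraries labelled double-KO passed it with all libraries (log2 -2.85 ± 0.68, adjusted p = 0.03), though not without any other single library of the 2 groups, and without the unnumbered control (log2 -3.40, adjusted p = 2.4e-06).

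*Fgfr2*, the receptor of FGF7 and FGF10 in its epithelial form, had the highest FPKM of the 8 genes in control. It was at 253, 169 and 159 CPM in control and at 172, 114 and 113 CPM in the libraries labelled double-KO. It was at 54.8, 52.5 and 52.3 CPM in libraries labelled *Rasa1*-KO and at 54.0, 56.2 and 53.9 CPM in *Nf2*-KO. The last 2 groups overlapped each other and lay below all other libraries. The lower level in the libraries labelled double-KO did not pass the test (log2 -0.55 ± 0.19, adjusted p = 0.121), but passed it with a block by the number in the table names (log2 -0.54, adjusted p = 0.00151). *Fgfr2* fell 3.55-fold in *Nf2*-KO (log2 -1.83 ± 0.20, adjusted p = 2.0e-05) and 3.64-fold in libraries labelled *Rasa1*-KO (log2 -1.87 ± 0.20, adjusted p = 2.6e-05).

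*Fgfr3* was at 42.1, 23.2 and 20.8 CPM in control and at 15.1, 12.6 and 10.7 CPM in the libraries labelled double-KO. It was at 6.39, 7.95 and 8.09 CPM in libraries labelled *Rasa1*-KO and at 6.81, 4.48 and 6.73 CPM in *Nf2*-KO. None of the other 3 groups overlapped with control. *Fgfr3* fell 4.78-fold in *Nf2*-KO (log2 -2.26 ± 0.27, adjusted p = 5.1e-05), 3.84-fold in libraries labelled *Rasa1*-KO (log2 -1.94 ± 0.27, adjusted p = 0.000187) and 2.25-fold in those labelled double-KO (log2 -1.17 ± 0.26, adjusted p = 0.0226).

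The make-up of the FGF receptor transcripts differed accordingly. *Fgfr2* was between 80.0% and 83.1% of the summed FPKM of *Fgfr1*, *Fgfr2* and *Fgfr3* in control and between 87.4% and 90.0% in the libraries labelled double-KO. It was between 58.9% and 64.9% in libraries labelled *Rasa1*-KO and between 60.3% and 67.7% in *Nf2*-KO. *Fgfr1* was between 25.4% and 30.3% in libraries labelled *Rasa1*-KO and between 23.9% and 30.4% in *Nf2*-KO, but at most 6.94% in control and 1.07% in the libraries labelled double-KO. *Fgfr2* was the most abundant FGF receptor transcript in every library. The sum was between 39.5 and 54.8 FPKM in control, between 14.4 and 16.3 FPKM in *Nf2*-KO, between 14.4 and 15.8 FPKM in libraries labelled *Rasa1*-KO and between 22.5 and 32.8 FPKM in those labelled double-KO.

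**Figure D2:**
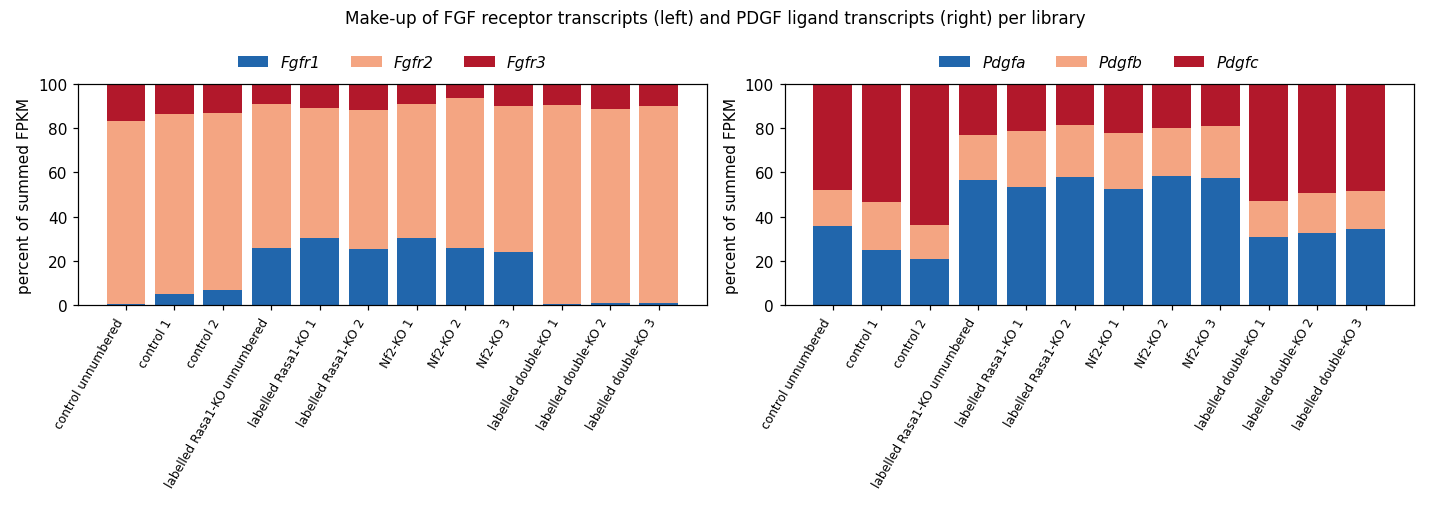
Percent of summed FPKM per library for *Fgfr1*, *Fgfr2* and *Fgfr3* (left) and for *Pdgfa*, *Pdgfb* and *Pdgfc* (right). *Fgfr1* is between 23.9% and 30.4% in the 6 libraries with little *Nf2* mRNA, and *Pdgfa* exceeds *Pdgfc* in these libraries only.

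In FPKM, the order of the 8 genes differed between control and *Nf2*-KO. In control *Fgfr2* (36.4 ± 7.87 FPKM, SD, n = 3) was followed by *Pdgfc* (22.8 ± 5.24 FPKM) and *Pdgfa* (11.1 ± 2.76 FPKM). *Pdgfb* (7.21 ± 0.85 FPKM) and *Fgfr3* (6.53 ± 2.25 FPKM) came next and overlapped each other, and *Pdgfrb* (2.15 ± 1.61 FPKM), *Fgfr1* (1.65 ± 1.34 FPKM) and *Pdgfra* (0.567 ± 0.48 FPKM) overlapped at the lower end. In *Nf2*-KO *Pdgfa* (17.7 ± 1.65 FPKM) and *Pdgfrb* (15.5 ± 1.09 FPKM) stood first and overlapped. *Pdgfra* (11.6 ± 0.49 FPKM) and *Fgfr2* (9.98 ± 0.53 FPKM) followed, and *Fgfr3* (1.32 ± 0.27 FPKM) was last. The PDGF receptor transcripts thus went from the lower end of the order to its upper part, beside their ligand transcripts *Pdgfa* and *Pdgfb* (7.46 ± 0.29 FPKM).

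Of the 7 genes apart from *Pdgfra*, 5 passed an adjusted p of 0.05 in *Nf2*-KO against control. *Pdgfrb* and *Pdgfa* rose, where 20.6% of the 18053 genes tested were called higher, and *Pdgfc*, *Fgfr2* and *Fgfr3* fell, where 22.2% were called lower. The libraries labelled *Rasa1*-KO gave the same 2 genes higher and the same 3 genes lower, where 19.7% of all genes were called higher and 22.2% lower. Both comparisons share the control libraries, so the second is not independent of the first. Without the unnumbered control 6 of the 7 genes were called in each comparison, with *Fgfr1* added as higher, where 61.6% and 60.5% of all genes were called. By the cutoffs of the study (3-fold, unadjusted p of 0.05), 4 and 3 of the 7 genes passed, where 11.4% and 9.27% of all genes did.

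In the libraries labelled double-KO, with *Nf2* mRNA at the level of control, 2 of the 7 genes were called against control. *Fgfr1* and *Fgfr3* fell, where 2.46% of all genes were called lower, and 0 of the 7 genes rose (edgeR; also 0 by DESeq2), where 4% were called higher. At an unadjusted p under 0.05, 4 of the 7 genes passed, where 21.2% of all genes did. Both calls were lost when only these 2 groups were fitted. DESeq2 called 3 of the 7 genes lower, among them *Pdgfrb* (log2 -1.72, adjusted p = 0.0143). The call of *Fgfr1* was lost under 12 of 21 other settings, among them without any library of either group except the unnumbered control, and that of *Fgfr3* without replicate 2 (adjusted p = 0.0948) or 3 (0.123) labelled double-KO. Without the unnumbered control *Pdgfa* was called higher and *Pdgfrb*, *Fgfr1* and *Fgfr3* lower, 4 of the 7 genes, where 30.1% of all genes were called. Some libraries of these 2 groups with unlike numbers in their table names deviated together (correlations of 0.399 and 0.258), as did those with the same number. With a block by that number *Pdgfrb* (log2 -1.36, adjusted p = 0.0355), *Fgfr1* (log2 -2.36, adjusted p = 0.0166), *Fgfr2* (log2 -0.54, adjusted p = 0.00151) and *Fgfr3* (log2 -1.11, adjusted p = 0.00361) were called lower, where 13.9% of all genes were called. *Pdgfra* had a log2 difference of -2.30 ± 0.78 (adjusted p = 0.111), of -1.96 with the block (adjusted p = 0.0151) and of -2.88 without the unnumbered control (adjusted p = 4.2e-05).

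Set directly against each other, the 2 groups with low *Rasa1* mRNA differed in all 7 genes with all libraries in the fit. In the libraries labelled double-KO, *Pdgfc*, *Fgfr2* and *Fgfr3* were higher than in those labelled *Rasa1*-KO, where 16.3% of all genes were called higher, and *Pdgfrb*, *Pdgfa*, *Pdgfb* and *Fgfr1* were lower, where 14% were called lower. The largest of these differences were those of *Fgfr1* (log2 -4.33 ± 0.72, adjusted p = 0.00105) and *Pdgfrb* (log2 -3.48 ± 0.61, adjusted p = 0.00145). The smallest were those of *Pdgfb* (log2 -0.41 ± 0.12, adjusted p = 0.0221) and *Pdgfa* (log2 -0.75 ± 0.17, adjusted p = 0.00598). The call of *Pdgfb* was lost when replicate 1 (adjusted p = 0.0895) or 2 (0.0602) labelled *Rasa1*-KO, or replicate 1 (0.0758) or 3 (0.067) labelled double-KO, was left out. That of *Fgfr3* (log2 0.77 ± 0.26, adjusted p = 0.0449) was lost under 11 of 21 other settings, among them without any single library of either group. *Pdgfra*, given as a description, was lower by 5.58 ± 0.84 on the log2 scale. With the labels exchanged, each of these signs turns. By the cutoffs of the study 2 of the 7 genes passed, where 5.66% of all genes did.

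Between the 2 groups with little *Nf2* mRNA the widest gaps were in the PDGF receptors. *Pdgfra* was 2.26-fold higher in *Nf2*-KO than in libraries labelled *Rasa1*-KO (log2 1.17 ± 0.67, adjusted p = 0.471) and *Pdgfrb* 2.32-fold (log2 1.22 ± 0.55, adjusted p = 0.319), with no overlap between the groups. In the fit over all libraries 0 of the 7 genes were called (edgeR; also 0 by DESeq2), where 3.66% of all genes were, and 2 had an unadjusted p under 0.05, where 15.4% of all genes did. That fit shares one estimate of the spread with the control libraries, in which *Pdgfra* spanned 0.223 to 6.29 CPM. When only the 2 groups were fitted, *Pdgfra* (log2 1.18 ± 0.07, adjusted p = 4.4e-06), *Pdgfrb* (log2 1.22 ± 0.07, adjusted p = 1.8e-06) and *Pdgfa* (log2 -0.24 ± 0.07, adjusted p = 0.0299) passed, where 25.8% of all genes did. Without the unnumbered control the fit over all groups called *Pdgfra* (adjusted p = 0.00262) and *Pdgfrb* (adjusted p = 0.00108). The differences of *Fgfr1* (log2 -0.05 ± 0.61) and *Fgfr2* (log2 0.04 ± 0.19) were within their errors. With the labels exchanged the comparison becomes *Nf2*-KO against the libraries labelled double-KO, in which 6 of the 7 genes were called and *Pdgfb* was not, where 32.2% of all genes were called.

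**Figure D3:**
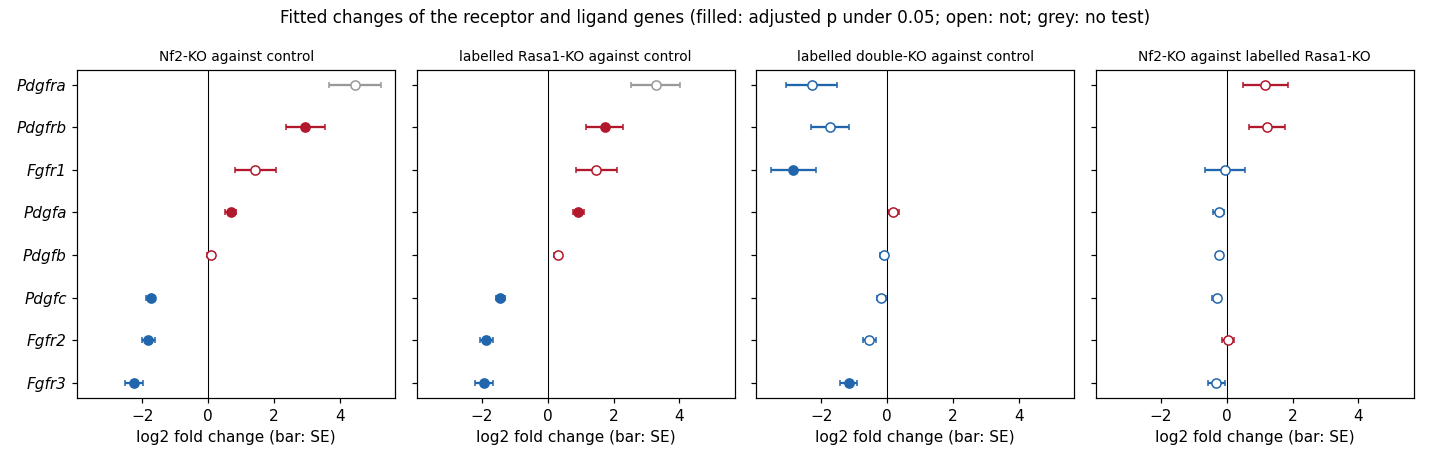
Log2 fold change with its SE for the 8 genes in 4 comparisons, filled where the adjusted p is under 0.05, open where it is not, and grey where *Pdgfra* has no test. *Pdgfrb* and *Pdgfa* are to the right and *Pdgfc*, *Fgfr2* and *Fgfr3* to the left of 0 in *Nf2*-KO and in libraries labelled *Rasa1*-KO, and 0 of the 7 tested genes besides *Pdgfra* are filled in *Nf2*-KO against the libraries labelled *Rasa1*-KO.

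By the labels, the double-KO libraries did not show the sum of both single knockouts. The departure from additivity, the log2 level in the libraries labelled double-KO minus those of *Rasa1*-KO and *Nf2*-KO plus that of control, passed the test for all 7 genes, where 52.4% of all genes did. The call of *Pdgfb* (-0.50 ± 0.17, adjusted p = 0.0272) was lost under 9 of 20 other settings, with adjusted p up to 0.118, among them without control 2, without *Nf2*-KO 1 or 3, without replicate 1 or 2 labelled *Rasa1*-KO and without replicate 1 labelled double-KO. The departure was largest for *Pdgfrb* (-6.42 ± 0.84, adjusted p = 7.0e-05) and *Fgfr1* (-5.76 ± 0.95, adjusted p = 0.000369). With the labels exchanged 1 of the 7 genes passed, where 6.41% of all genes did. This was *Fgfr3* (log2 1.48 ± 0.37, adjusted p = 0.0363), and *Fgfr1* had the largest value without passing (log2 2.90 ± 0.91, adjusted p = 0.0873). The departure thus rests on which labels hold, and *Nf2* mRNA goes against those used in both groups with low *Rasa1* mRNA.

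Other genes of both pathways were taken from lists, whose counts stand beside the 20.6% of all genes called higher and 22.2% called lower in *Nf2*-KO. For libraries labelled *Rasa1*-KO these shares were 19.7% and 22.2%, and for those labelled double-KO 4% and 2.46%. Of 18 FGF ligands 6 were measured, and in *Nf2*-KO *Fgf7*, *Fgf18* and *Fgf21* rose while *Fgf1* and *Fgf17* fell (median log2 0.66, against -0.07 over all genes tested). *Fgf7*, the keratinocyte growth factor, was at most 3.79 CPM in control and between 14.5 and 14.9 CPM in *Nf2*-KO (log2 2.19 ± 0.26, adjusted p = 4.7e-05). *Fgf21*, an endocrine FGF, went from between 0.0272 and 0.127 CPM to between 3.29 and 4.57 CPM (log2 5.38 ± 0.48, adjusted p = 5.2e-06), with between 2 and 12 counts in the control libraries. *Fgf1*, a ligand of all FGF receptors, fell from between 38.1 and 48.0 CPM to between 16.9 and 17.5 CPM (log2 -1.27 ± 0.11, adjusted p = 4.0e-06). In the libraries labelled *Rasa1*-KO *Fgf7*, *Fgf18* and *Fgf21* rose and *Fgf1* fell, and in those labelled double-KO *Fgf18* alone of the 6 passed the test.

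Of the 5 genes on the list of other PDGF ligands and processing, *Plau* rose and *Pdgfd* and *Furin* fell in *Nf2*-KO (median log2 0.31). *Plau*, the protease urokinase, rose 6.65-fold in *Nf2*-KO (adjusted p = 5.6e-08), 4.38-fold in libraries labelled *Rasa1*-KO (adjusted p = 4.6e-07) and 2.15-fold in those labelled double-KO (adjusted p = 0.000625). *Pdgfd*, whose product binds PDGFRB, fell from between 3.90 and 6.26 CPM in control to between 1.18 and 1.64 CPM in *Nf2*-KO (adjusted p = 5.5e-05). It was between 4.36 and 4.56 CPM in libraries labelled *Rasa1*-KO, within the control range (adjusted p = 0.322). *Furin*, a protease that cuts growth factor precursors, fell 2.28-fold in *Nf2*-KO (adjusted p = 0.0031).

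Of 16 heparan sulfate proteoglycans and enzymes 15 were measured, and in *Nf2*-KO 6 rose and 3 fell (median log2 0.06). The glypican *Gpc4* fell 10.5-fold (adjusted p = 0.00121), the syndecan *Sdc3* rose 3.96-fold (adjusted p = 0.000594), and the sulfotransferase *Hs6st2* rose 2.77-fold (adjusted p = 1.2e-06). *Hs6st2* fell 1.68-fold in the libraries labelled double-KO (adjusted p = 0.00203), the only call of this list there. *Fgfrl1*, an FGF receptor without a kinase domain and the only measured gene of 3 on its list, rose 1.69-fold in *Nf2*-KO (adjusted p = 0.00976).

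Inside the cell, 1 of 14 adaptors and effectors rose in *Nf2*-KO and 3 fell (median log2 -0.22), no larger a share than over all genes. The falling genes were the adaptors *Gab1* (1.78-fold, adjusted p = 0.0103), *Nck1* (1.75-fold, adjusted p = 0.000214) and *Grb2* (1.70-fold, adjusted p = 0.0314, with overlapping groups and no call without control 1 or 2 or *Nf2*-KO 2 or 3), and the rising gene was *Plcg1*. Of 11 measured attenuators *Spry1*, *Spry2*, *Il17rd* and *Dusp6* rose and *Cbl* fell (median log2 0.06). *Il17rd*, an inhibitor of FGF signalling, rose 2.60-fold (adjusted p = 3.3e-05). *Dusp6*, an ERK phosphatase that ERK activity induces, rose 1.68-fold in *Nf2*-KO (adjusted p = 3.4e-05), 1.70-fold in libraries labelled *Rasa1*-KO (adjusted p = 3.9e-05) and 1.45-fold in those labelled double-KO (adjusted p = 0.0037). *Cbl*, which marks active receptors for degradation, fell 2.80-fold in *Nf2*-KO (adjusted p = 0.017), with overlapping groups and no call without control 1 or 2 or *Nf2*-KO 2 or 3.

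Of the 3 ETS factors that act after FGF receptors, *Etv4* rose 1.72-fold in *Nf2*-KO (adjusted p = 0.000241) and 1.79-fold in libraries labelled *Rasa1*-KO (adjusted p = 0.000182), and the other two did not pass. Of 3 measured FGF receptor splicing factors, *Esrp2*, which favours the epithelial splice forms, fell 1.59-fold in *Nf2*-KO (adjusted p = 0.00381). Splice forms themselves were not measured. Of 11 measured related receptors and ligands 6 rose and 2 fell in *Nf2*-KO (median log2 0.56). The VEGF receptor 1 ligand *Pgf* rose 14.3-fold (adjusted p = 5.5e-07), *Vegfd* rose 5.55-fold (adjusted p = 1.9e-06) and its receptor *Flt4* fell 10.6-fold (adjusted p = 3.4e-05). In libraries labelled *Rasa1*-KO *Pgf* rose 14.7-fold (adjusted p = 8.4e-07), *Vegfd* rose 4.72-fold (adjusted p = 6.0e-06) and *Flt4* fell 8.40-fold (adjusted p = 9.0e-05). In those labelled double-KO *Pgf* rose 5.01-fold (adjusted p = 0.000355) and *Vegfd* 2.24-fold (adjusted p = 0.00399), and *Flt4* was not called (adjusted p = 0.892).

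Most genes known as fibroblast markers moved with the PDGF receptors in *Nf2*-KO, but fewer did so in the libraries labelled *Rasa1*-KO. There *Fap*, *Dpt* and *Col6a3* stayed within the control range. In *Nf2*-KO 6 of 7 measured fibroblast markers rose and *Dcn* fell (median log2 2.52). In the libraries labelled *Rasa1*-KO *Col1a1*, *Col1a2* and *Col3a1* rose and *Dcn* fell (median log2 0.15), *Col3a1* with no call without control 2 or any library of that label, and in those labelled double-KO *Dcn*, *Fap* and *Col6a3* fell (median log2 -1.70). The summed CPM of the 7 was between 94.2 and 1002 in control, between 2472 and 2610 in libraries labelled *Rasa1*-KO, between 7165 and 7769 in *Nf2*-KO and between 136 and 291 in those labelled double-KO. The unnumbered control was the lowest library here too. *Col3a1*, a fibrillar collagen, was between 38.7 and 812 CPM in control and between 6233 and 6926 CPM in *Nf2*-KO. *Col1a2*, another, was between 0.0212 and 0.496 CPM in control and between 133 and 141 CPM in *Nf2*-KO (log2 9.47 ± 0.60, adjusted p = 3.8e-07), with 2 counts in the unnumbered control. *Col1a1* rose 32.1-fold (adjusted p = 0.000583). The part of these transcripts in the difference of *Pdgfra* and *Pdgfrb* was not tested.

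Few markers of vessels and blood cells were measured. The genes measured all had at least 1 count in every library, so an unmeasured marker is not shown to be absent from all groups. Of 6 endothelial markers 2 were measured, with *Pecam1* under 1 CPM in every library, and their summed level fell from between 5.89 and 6.82 CPM in control to between 2.47 and 2.75 CPM in *Nf2*-KO, with both genes called lower. The sum was between 2.61 and 2.66 CPM in libraries labelled *Rasa1*-KO, where both genes were called lower too. In those labelled double-KO it was between 10.4 and 11.3 CPM, with *Esam* called higher (1.84-fold, adjusted p = 0.00218). Of 7 leukocyte markers 2 were measured, with *Ptprc* under 1 CPM in every library. *Cd68* rose 2.02-fold in *Nf2*-KO (adjusted p = 0.00908) and 2.99-fold in libraries labelled *Rasa1*-KO (adjusted p = 0.000718), and was not called in those labelled double-KO (adjusted p = 0.0903). Of 5 tested pericyte and smooth muscle markers *Notch3* rose 5.02-fold in *Nf2*-KO (adjusted p = 0.0159), *Rgs5* fell, and *Des* and *Cnn1* were under 1 CPM in every library.

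Epithelial markers were present in all libraries. *Krt8*, a keratin of simple epithelia, was between 1503 and 3630 CPM over the 12 libraries, and the 9 measured markers summed to between 3780 and 6514 CPM in control and between 4963 and 5505 CPM in *Nf2*-KO. Of these 9 genes *Epcam*, *Cdh1* and *Elf3* fell in *Nf2*-KO and *Cldn3* rose, while *Cldn4* was under 1 CPM throughout. *Epcam*, an adhesion molecule of epithelia, was between 62.1 and 68.1 CPM in control, between 21.7 and 22.6 CPM in libraries labelled *Rasa1*-KO, between 9.97 and 10.7 CPM in *Nf2*-KO and between 23.6 and 42.7 CPM in those labelled double-KO. In the last group *Epcam* fell 1.79-fold (adjusted p = 0.0173, or 0.0595 without control 1) and *Krt19* rose, the 2 calls among the 9 genes there (median log2 0.09). In libraries labelled *Rasa1*-KO *Krt8*, *Krt18*, *Krt19* and *Cldn3* rose and *Epcam* and *Cdh1* fell (median log2 0.64). *Cdh1* (E-cadherin) fell 4.25-fold in *Nf2*-KO (adjusted p = 2.2e-06) and 2.98-fold in libraries labelled *Rasa1*-KO (adjusted p = 2.5e-05).

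**Figure D4:**
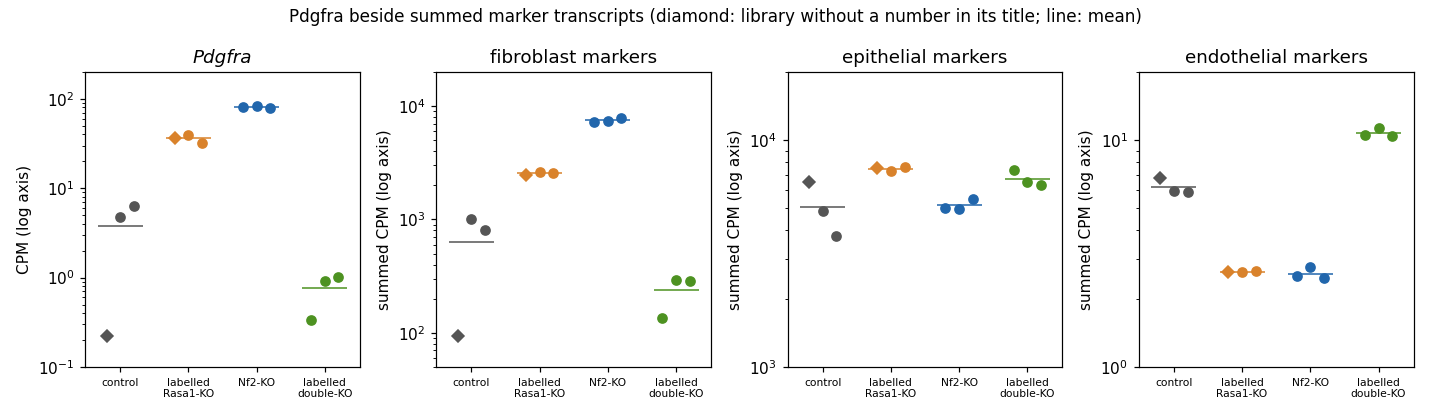
*Pdgfra* CPM and summed CPM of fibroblast, epithelial and endothelial markers on log axes, by library and group, with the group mean as a line. The fibroblast sum is between 7165 and 7769 CPM in *Nf2*-KO and between 136 and 291 CPM in the libraries labelled double-KO, in the order of *Pdgfra*. Most of it in *Nf2*-KO is *Col3a1* (between 6233 and 6926 CPM). The epithelial sum is between 3780 and 7647 CPM and is mostly *Krt8*, *Krt18* and *Krt19*, so it does not show the falls of *Epcam*, *Cdh1* and *Elf3* in *Nf2*-KO.

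The profiles over the 12 libraries were compared by the root mean square difference of log2 CPM, each gene centred on its own mean, among 12346 genes with a mean FPKM of at least 1. The genes most like *Pdgfra* were *Mmp2*, a matrix metalloproteinase (0.509), *Serpinf1*, a secreted serpin (0.737), *Col3a1* (0.772), *Podnl1* (0.872) and *Gng2*, a G protein subunit (0.876). *Mmp2* was between 103 and 111 CPM in *Nf2*-KO, between 25.3 and 28.4 CPM in libraries labelled *Rasa1*-KO, between 0.138 and 8.25 CPM in control and between 0.656 and 1.49 CPM in libraries labelled double-KO. The gene most like *Pdgfrb* was *Tmem119* (0.291), that most like *Fgfr1* was *Colec12* (0.377), and that most like *Fgfr2* was *Sort1* (0.144). For *Pdgfc* it was *Ccdc149* (0.142), for *Fgfr3* *Tst* (0.225), for *Pdgfa* *Mrpl40* (0.0647) and for *Pdgfb* *Mknk2* (0.0833).

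Among the 8 genes themselves, *Pdgfra* was closest to *Pdgfrb* (1.08) and *Fgfr1* (1.29), and *Pdgfrb* was closer to *Fgfr1* (0.615) than to *Pdgfra*. *Fgfr2* was closest to *Fgfr3* (0.317) and *Pdgfc* (0.324). Small values for *Pdgfa* and *Pdgfb* (0.342 from each other) go with their small changes. These distances are descriptions over libraries that share their groups.

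In mm10, *Pdgfra* lies on chromosome 5 (75151322 to 75198206), *Pdgfa* on chromosome 5 (138976014 to 139000792), *Fgfr3* on chromosome 5 (33721724 to 33737068), *Pdgfc* on chromosome 3 (81036416 to 81214040), *Fgfr2* on chromosome 7 (130162451 to 130266808), *Fgfr1* on chromosome 8 (25518759 to 25575718) and *Pdgfb* on chromosome 15 (79995865 to 80024614). These are RefSeq spans. Exons of *Pdgfra*, *Pdgfa*, *Pdgfc*, *Fgfr1* and *Fgfr3* overlap annotated transcripts of the opposite strand, and whether the counting used strand is not given in the sources used here, so reads of such partners cannot be told apart.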

How the data were processed

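RNA-seq of 12 libraries of S1 cells, 3 in each of 4 groups taken from the labels, was analysed. After trimming (Trimmomatic 0.38) and alignment to mm10 (HISAT2 2.1.0), the authors counted reads and, with StringTie 2.1.3b and the RefSeq annotation, deposited raw read counts, FPKM, TPM and normalized log2 values per gene. TPM and the authors' log2 values were not used. Counts were tested in R 4.3.3 with edgeR 4.0.16 (filterByExpr, TMM, 1 quasi-likelihood fit of the 4 groups), with Benjamini-Hochberg adjustment over 18053 genes and calls at an adjusted p under 0.05. The ± of a log2 fold change is its SE. The genes followed, the lists and the tests were chosen with earlier results of these data known. From each list up to 3 genes were named, those with the largest change in *Nf2*-KO against control among genes past the test there with a mean FPKM of at least 1 in either group. The genes most alike in profile were named too, 5 for *Pdgfra* and 1 for each other gene. Genes given only as counts of a list are named where 5 or fewer. Every gene had at least 1 count in each library. Pairs of libraries of a group differed by more than the counting noise, so each was counted once. Alternatives were RLE, DESeq2 1.42.0, no filter, only the groups compared, blocks by replicate number, left-out libraries, limma 3.58.1 on log2(FPKM + 1) and log2(FPKM + 0.1), the calling rule of the study and exchanged labels. An exact permutation test (two-sided) of groups this small cannot go below 0.1 and was not used. Between control and libraries labelled double-KO, deviations from the group means correlated where the table names had the same number (0.626, 0.313 and 0.444). Unlike numbers correlated too, for control 2 with replicate 2 (0.399) and control 1 with replicate 3 (0.258) labelled double-KO. Pairs of a library without a table number and a numbered one were between -0.560 and -0.379. The pattern thus set both libraries without a table number apart from the numbered ones. The code was tested on simulated data.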

Additional observations from a re-analysis of the deposited data

Results flagged for a closer look

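By the labels, the departure from additivity on the log2 scale passed the test for all 7 tested genes (edgeR, adjusted p under 0.05). It was -6.42 for *Pdgfrb*, -1.44 for *Pdgfa*, -0.50 for *Pdgfb*, 3.01 for *Pdgfc*, -5.76 for *Fgfr1*, 3.15 for *Fgfr2* and 3.03 for *Fgfr3*. The call of *Pdgfb* was lost under 9 of 20 other settings, with adjusted p up to 0.118. *Nf2* mRNA went against the labels of both groups with low *Rasa1* mRNA. The values are thus not shown to be a difference in the effect of *Nf2* loss. With the labels exchanged *Fgfr3* alone of the 7 passed, at 1.48 (adjusted p = 0.0363).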

How the results depend on the processing

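With the labels as given, 1000 values of the 8 genes under other settings were compared. Of these, 910 were counted as unchanged, 44 lost a call, 41 gained a call, 5 untested values moved and 0 were counted as reversed. A change of sign between values without a call was counted as unchanged. An example is *Fgfr1* in *Nf2*-KO against libraries labelled *Rasa1*-KO, with log2 values between -0.641 and 0.0754. With the labels of both groups with low *Rasa1* mRNA exchanged, an alternative added for single genes after seeing the data, 22 of 48 values reversed. Against control they became -2.30 (*Pdgfra*), -1.75 (*Pdgfrb*) and -2.85 (*Fgfr1*) for *Rasa1*-KO and 3.28, 1.73 and 1.48 for double-KO. For double-KO against *Rasa1*-KO they became 5.58 (*Pdgfra*), 3.48 (*Pdgfrb*), 0.75 (*Pdgfa*), 0.41 (*Pdgfb*), -1.26 (*Pdgfc*), 4.33 (*Fgfr1*), -1.32 (*Fgfr2*) and -0.77 (*Fgfr3*), and for *Nf2*-KO against *Rasa1*-KO 0.51 (*Pdgfa*), 4.28 (*Fgfr1*) and -1.28 (*Fgfr2*). The departure from additivity became 1.12 (*Pdgfra*), 0.53 (*Pdgfrb*), 0.0627 (*Pdgfa*), 0.33 (*Pdgfb*) and 2.90 (*Fgfr1*). Exchanging the labels swaps or turns these contrasts by construction. Counts of called genes (of 7) that moved by more than 1.5 times were as follows, and the cause of the other changes was not tested. For libraries labelled *Rasa1*-KO against control the count went from 5 to 2 with labels exchanged and to 3 by the cutoffs of the study. For those labelled double-KO against control it went from 2 to 0 with only these groups, to 0 with the replicate block by title number, to 4 with a block by the number in the table names, to 5 without both libraries that lack a table number and to 5 with labels exchanged, and leaving out single libraries gave 0 to 4, the 4 without the unnumbered control. Between the 2 groups with low *Rasa1* mRNA it went from 7 to 2 by the cutoffs of the study. For *Nf2*-KO against libraries labelled *Rasa1*-KO it went from 0 to 2 with only these groups, to 1 with the table-name block, to 1 without both libraries, to 6 with labels exchanged, and to between 0 and 1 with single libraries left out. The departure from additivity went from 7 to 1 with labels exchanged. Libraries with the same title number had correlations of -0.08, -0.04 and -0.09 between *Nf2*-KO and libraries labelled double-KO. Between control and libraries labelled double-KO these were -0.379 and 0.399. With the same table number, *Nf2*-KO and libraries labelled double-KO had correlations of 0.0992 and 0.0728. The block by title number left 5 calls in *Nf2*-KO and 6 in libraries labelled *Rasa1*-KO against control. With libraries left out singly, *Nf2*-KO against control kept 5 to 6 calls. The low *Pdgfra* and *Fgfr1* counts of the unnumbered control (21 and 84) came from 95340850 counts in all, against 317 and 680 from 43818139 in control 2.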
